A study of Homo sapiens with 6 samples.

Results

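The genes described here were the 4 transcription factors of the MITF/TFE family, MITF, TFEB, TFE3 and TFEC, together with FLCN, FNIP1, FNIP2, RRAGC and RRAGD, which encode the folliculin complex and a pair of Rag GTPases, and GPNMB, a gene known to respond to these factors. They were chosen by symbol as genes of this axis, with earlier results of these data known, and matched by Ensembl identifier, and all 10 were found among the 61496 features of the count table. RNA was sequenced from U251, an established human glioma cell line grown in DMEM with fetal bovine serum, in 3 libraries of untreated control cells and 3 libraries of cells exposed to the anesthetic gas sevoflurane (Sev) for 2 h. The deposited protocol lists Sev at 1.7%, 3.4% and 5.1% without assigning a concentration to a library, so the Sev libraries were taken as 1 group by their treatment label. The study describes its sequencing comparison as that of the highest of these concentrations with the control. All samples come from 1 cell line, and the labels do not say whether the libraries of a group came from separate cultures, so p-values measure the spread between these libraries, which may be technical.

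MITF, TFEB, TFE3 and TFEC are basic helix-loop-helix leucine zipper factors that bind E-box sequences. MITF is the master factor of pigment cells, whereas TFEB and TFE3 are best known for driving lysosome and autophagy genes. When nutrients are plentiful, these factors are held in the cytoplasm after phosphorylation by mTORC1 at the lysosome. That phosphorylation requires RagC or RagD in its GDP-bound form, and folliculin (FLCN), acting with FNIP1 or FNIP2, is the GTPase-activating protein that produces that form. RRAGD, FLCN, FNIP1, FNIP2 and GPNMB are in turn known as target genes of the family, which makes the axis a feedback loop.

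Promoter sequence is shown for the 4 genes whose transcripts rose with Sev and whose window held 1 of the searched motifs, so that the letters can be read beside the expression values that follow. The sequences are the 250 bases before a RefSeq start site on GRCh38.p14, written 5′ to 3′ on the strand of the gene. They lie at chr1:38859773-38860022 on the minus strand for RRAGC, at chr5:131797018-131797267 on the minus strand for FNIP1, at chr7:23246525-23246774 on the plus strand for GPNMB and at chr3:69936342-69936591 on the plus strand for MITF. The MITF window is the most downstream of the 3 listed for that gene, and its motif was added to the search after the windows had been read. The gene-level values do not show which of the 3 start sites was used. Capitals mark CACGTG in RRAGC and FNIP1, CACATGA (the reverse complement of TCATGTG) in GPNMB and TGACGTCA in MITF.
RRAGC: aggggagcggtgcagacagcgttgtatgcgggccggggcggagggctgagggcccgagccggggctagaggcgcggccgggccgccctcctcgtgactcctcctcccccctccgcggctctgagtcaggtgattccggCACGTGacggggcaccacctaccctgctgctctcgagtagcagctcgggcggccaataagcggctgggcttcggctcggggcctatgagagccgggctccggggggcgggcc
FNIP1: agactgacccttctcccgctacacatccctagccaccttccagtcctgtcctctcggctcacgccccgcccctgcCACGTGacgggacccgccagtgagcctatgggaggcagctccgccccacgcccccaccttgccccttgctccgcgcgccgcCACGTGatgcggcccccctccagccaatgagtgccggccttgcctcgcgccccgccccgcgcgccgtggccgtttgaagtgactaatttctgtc
GPNMB: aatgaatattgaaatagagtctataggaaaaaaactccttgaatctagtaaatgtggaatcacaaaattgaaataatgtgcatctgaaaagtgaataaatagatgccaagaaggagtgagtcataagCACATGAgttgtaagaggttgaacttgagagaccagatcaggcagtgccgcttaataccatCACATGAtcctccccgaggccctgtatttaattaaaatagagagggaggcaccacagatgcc
MITF: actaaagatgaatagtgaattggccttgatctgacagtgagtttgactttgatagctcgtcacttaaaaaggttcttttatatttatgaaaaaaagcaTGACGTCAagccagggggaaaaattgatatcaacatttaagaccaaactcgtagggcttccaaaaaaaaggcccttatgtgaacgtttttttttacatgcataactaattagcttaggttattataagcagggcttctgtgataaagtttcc

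CACGTG is the E-box bound by MITF/TFE factors among many other helix-loop-helix proteins, TCATGTG is the M-box of pigment genes, and TGACGTCA is the cAMP response element. CACGTG began at position −112 from the start site in RRAGC and at −175 and −94 in FNIP1. TCATGTG began at −123 and −62 in GPNMB, and it was also found in the second window of FNIP2, at −142. TGACGTCA began at −152 in the third MITF window, and this motif was added to the search after the windows had been read. The RefSeq table held 15 windows of 300 bases for 9 of the 10 genes, with no entry for RRAGD. Over both strands, CACGTG was in 2 of those 15 windows and in 7.26% of all 35116 windows in the table. The corresponding numbers were 2 windows and 2.92% for TCATGTG, and 1 window and 1.85% for TGACGTCA. The extended E-box TCACGTGA, which contains CACGTG and stood in 0.98% of all windows, and the C/EBP-ATF core TGATGNAA, in 3.62%, were in none of the 15 windows. A match is a description of the letters and does not show that a factor binds there.

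Library totals ranged from 38624292 to 46318311 counts, and the first principal component, with 69% of the variance, separated the 3 Sev from the 3 control libraries. Of the 27514 features that passed the filter on low counts, 22.1% were higher and 21.5% were lower in Sev at an adjusted p-value under 0.05 in edgeR's quasi-likelihood test, so a call in either direction (43.7%) was common. The threshold of the study asks for a log2 fold change over 1 (or under −1) and p under 0.05 before adjustment. It was passed by 23.5% of the tested features, and in 56.5% the normalised counts of the groups did not overlap. Glial markers were expressed, with VIM at 5123 to 6497 and NES at 1391 to 1735 CPM (counts scaled to a common library size by TMM) over the 6 libraries, while the glial marker CHI3L1 had 0 to 14 counts. Among the 8 glial markers, 7 were tested, 1 was higher (CD44) and 2 were lower (S100B and SOX2) in Sev.

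Of the 10 genes, 9 passed the filter and TFEC did not. MITF, TFE3, FNIP1, RRAGC and GPNMB were higher in Sev, none was called lower, and TFEB, FLCN, FNIP2 and RRAGD were not called. The 5 of 9 genes called higher (55.6%) stand beside 22.1% of all tested features. For the 0 called lower, RRAGD alone had a negative difference with an unadjusted p-value under 0.05 in edgeR, and the Wald test of DESeq2 also called 0 lower. The groups did not overlap for 8 of the 9, beside 56.5% of all features, and only MITF passed the threshold of the study, beside 23.5% of all features. That pass was lost under library size alone (log2 fold change 0.96) and in the 3 limma fits to FPKM values (0.80 to 0.94). The median log2 fold change of the 9 genes was 0.30, against −0.01 over all tested features. These calls depend on how libraries were scaled, since scaling by library size alone moved the median of all features by −0.14 on the log2 scale and gave 4665 higher and 7502 lower features in place of 6094 and 5920. Under that scaling 4 of the genes were higher and 2 (FLCN and RRAGD) were lower.

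**Figure D1:**
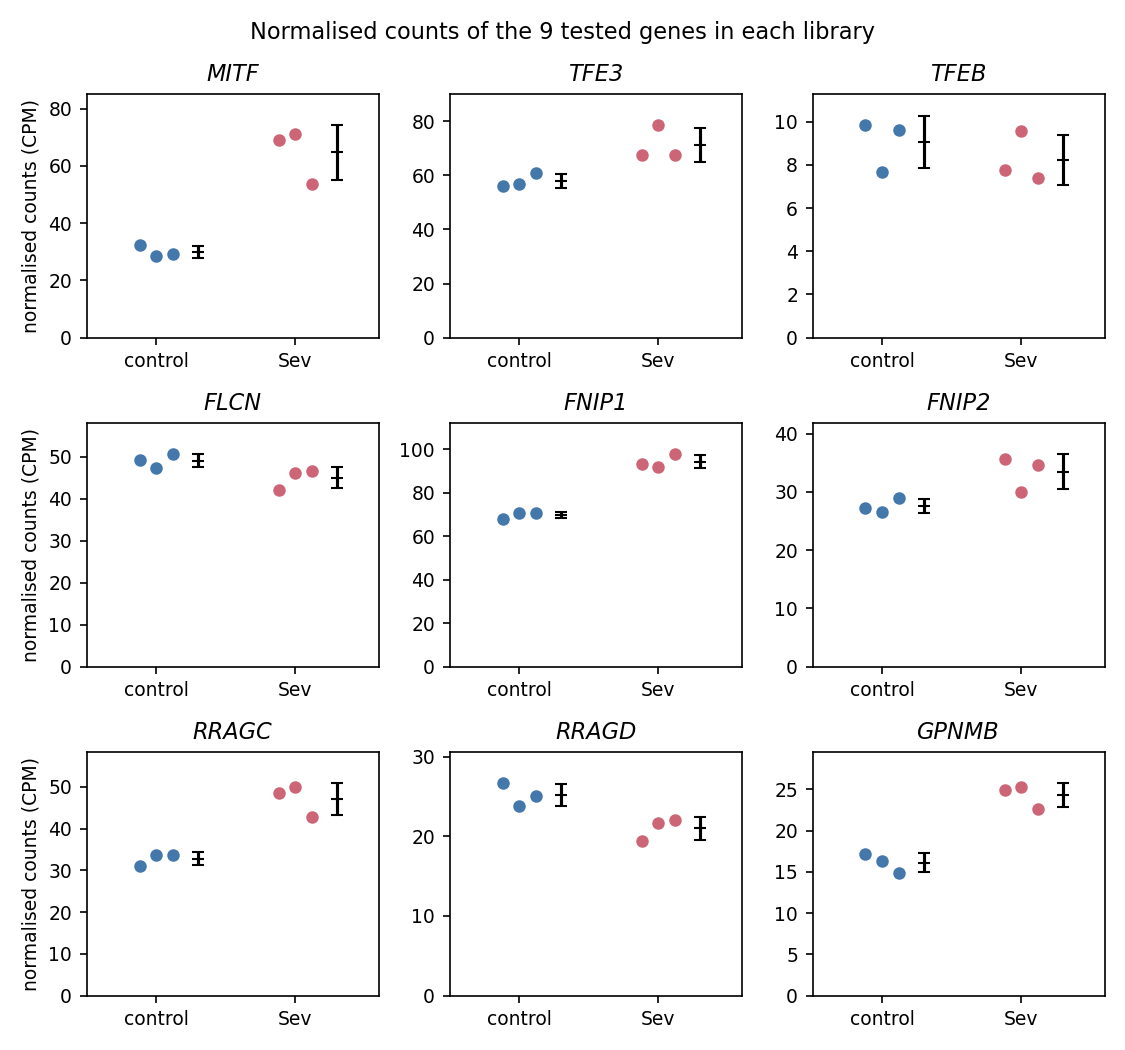
TMM-normalised counts (CPM, y axes, each from 0) of the 9 tested genes in the 3 control and 3 Sev libraries (points), with mean ± SD as black bars. MITF runs from 28.3 to 32.3 in control and from 53.8 to 71.1 in Sev, while TFEB overlaps between the groups.

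MITF (ENSG00000187098, chr3:69739435-69968337 on the plus strand of GRCh38) showed the largest change of the 9 genes. Its normalised count was 32.3, 28.3 and 29.3 CPM in the control libraries and 69.1, 71.1 and 53.8 CPM in the Sev libraries. All Sev libraries lay above all control libraries, and Sev replicate 3 was the lowest of its group. The mean went from 30.0 ± 2.05 to 64.7 ± 9.47 CPM (SD, n = 3 each), a 2.16-fold rise with a log2 fold change of 1.11 (SE 0.12, 95% CI 0.82 to 1.40, edgeR adjusted p = 0.000493). The call held in all 15 alternative settings, with log2 fold changes of 0.80 to 1.23 and adjusted p-values of 5.41e-13 to 0.00512. The deposited gene values sum over transcripts, so the pigment-cell isoform and the longer isoforms of MITF were not separated.

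TFE3 (ENSG00000068323, chrX:49028726-49043486, minus strand), the family member with the highest level in these cells, rose by a smaller amount. The control libraries held 56.0, 56.7 and 60.9 CPM and the Sev libraries 67.5, 78.4 and 67.4 CPM. The groups did not overlap, and Sev replicate 2 stood above the other two. The log2 fold change was 0.30 (SE 0.09, 95% CI 0.08 to 0.51, edgeR adjusted p = 0.0320), a 1.23-fold difference between means of 57.9 ± 2.63 and 71.1 ± 6.36 CPM (SD, n = 3 each). This call was fragile, since it was lost in 11 of 15 alternatives, including 5 of the 6 in which a library was dropped. The adjusted p-values without control replicate 1, 2 or 3 were 0.0984, 0.0938 and 0.0640, and without Sev replicate 1 or 2 they were 0.0560 and 0.0686.

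TFEB (ENSG00000112561, chr6:41683978-41736259, minus strand), the factor most often studied as a regulator of lysosome number, did not pass the test. Its values were 9.83, 7.67 and 9.64 CPM in control and 7.78, 9.55 and 7.40 CPM in Sev. The groups overlapped, and each held both low and high libraries. The log2 fold change was −0.14 (SE 0.16), and its 95% CI of −0.51 to 0.24 leaves room for a moderate decrease or a small increase (edgeR adjusted p = 0.530). TFEC (ENSG00000105967, chr7:115935148-116159896, minus strand), a relative whose expression is best known in macrophages, had 3, 0 and 7 counts in control and 0, 0 and 7 counts in Sev. It was therefore at or near the limit of detection in every library and was not tested.

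FLCN (ENSG00000154803, chr17:17212212-17237188, minus strand), the tumor suppressor of Birt-Hogg-Dubé syndrome, was not called. It stood at 49.2, 47.4 and 50.5 CPM in control and at 42.1, 46.2 and 46.7 CPM in Sev. Every Sev library was below every control library, but the gap was small. The log2 fold change was −0.13 (SE 0.08, 95% CI −0.32 to 0.07, edgeR adjusted p = 0.257). It was called lower under scaling by library size alone (log2 fold change −0.27, adjusted p = 0.0443) and by limma on log2(FPKM + 1) without a filter (−0.21, adjusted p = 0.0376).

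Its partners FNIP1 and FNIP2 are related proteins that each bind FLCN. FNIP1 (ENSG00000217128, chr5:131641714-131797063, minus strand) was one of the most evenly measured genes of the set, at 68.0, 70.5 and 70.7 CPM in control and 93.3, 91.8 and 97.7 CPM in Sev. The 2 groups were each tight and well apart. It rose 1.35-fold, from 69.7 ± 1.47 to 94.3 ± 3.04 CPM (SD, n = 3 each), with a log2 fold change of 0.43 (SE 0.07, 95% CI 0.27 to 0.60, edgeR adjusted p = 0.00254). That call was lost in 1 of 15 alternatives, limma on log2(FPKM + 0.1), where the log2 fold change was 0.29 and the adjusted p = 0.0522. Its promoter window is the one printed above with a pair of CACGTG motifs.

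FNIP2 (ENSG00000052795, chr4:158769138-158908049, plus strand) was at 27.3, 26.5 and 28.9 CPM in control and at 35.6, 30.0 and 34.7 CPM in Sev. The groups did not overlap, with Sev replicate 2 close to the control range. The log2 fold change was 0.28 (SE 0.10, 95% CI 0.05 to 0.51), and it missed the limit (edgeR adjusted p = 0.0542). Without Sev replicate 2 it was called higher (log2 fold change 0.36, adjusted p = 0.0234), as it was with the size factors of DESeq2 (adjusted p = 0.0459) and with its Wald test (adjusted p = 0.0456). It was smaller and not called under library size alone (log2 fold change 0.14, adjusted p = 0.355) and by limma on log2(FPKM + 1) (0.093, adjusted p = 0.427).

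RRAGC and RRAGD encode the paralogous Rag subunits on which folliculin acts. RRAGC (ENSG00000116954, chr1:38838198-38859823, minus strand) was at 30.9, 33.7 and 33.8 CPM in control and at 48.5, 49.96 and 42.9 CPM in Sev. All Sev libraries were above all control libraries, with Sev replicate 3 the nearest to them. The mean rose 1.44-fold, from 32.8 ± 1.61 to 47.1 ± 3.75 CPM (SD, n = 3 each), with a log2 fold change of 0.52 (SE 0.10, 95% CI 0.30 to 0.74, edgeR adjusted p = 0.00366). The call held in all 15 alternatives, with log2 fold changes of 0.33 to 0.59.

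RRAGD (ENSG00000025039, chr6:89364636-89412270, minus strand) had values on the other side of 0. It was at 26.6, 23.8 and 25.1 CPM in control and at 19.4, 21.6 and 22.01 CPM in Sev. The groups did not overlap, and Sev replicate 1 was the lowest library. The log2 fold change was −0.26 (SE 0.10, 95% CI −0.50 to −0.03), and it did not pass after adjustment over all features (edgeR adjusted p = 0.0698). It was called lower under scaling by library size alone (log2 fold change −0.40, adjusted p = 0.0214) and in the 3 fits of limma to FPKM values (adjusted p = 0.0239, 0.0329 and 0.0261), and the direction was the same in all 15 alternatives.

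GPNMB (ENSG00000136235, chr7:23235967-23275108, plus strand), a transmembrane glycoprotein made by pigment cells, macrophages and many gliomas, rose with Sev. Its values were 17.2, 16.3 and 14.9 CPM in control and 24.95, 25.3 and 22.6 CPM in Sev. The groups were apart, with means of 16.1 ± 1.19 and 24.3 ± 1.46 CPM (SD, n = 3 each). The log2 fold change was 0.59 (SE 0.11, 95% CI 0.34 to 0.84, edgeR adjusted p = 0.00359), and the call held in all 15 alternatives.

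Because GPNMB and TFEC are also macrophage genes, markers of macrophages and microglia were read beside them. Of 8 markers, AIF1 and TYROBP had 0 counts in every library, while PTPRC had at most 12 and CD163 at most 4. The summed level of the 8 markers was 7.57 to 9.76 CPM in control and 17.2 to 19.5 CPM in Sev. Of the 4 markers tested, 3 were higher in Sev by edgeR (22.1% of all features were), and 0 were lower (21.5% of all features) either by that test, at an unadjusted p-value under 0.05 or by DESeq2's Wald test. CD14 had 1.30, 1.31 and 1.40 CPM in control and 5.87, 5.22 and 3.84 CPM in Sev, and ITGAM had 2, 3 and 0 counts in control and 69, 33 and 130 counts in Sev. CSF1R went from a mean of 3.84 to 6.30 CPM (log2 fold change 0.72, edgeR adjusted p = 0.0201), a call that was lost without control replicate 1, 2 or 3 (adjusted p up to 0.0659) and by limma on log2(FPKM + 1) with or without its filter. The same unfiltered limma fit did not call ITGAM. The part of these genes in the GPNMB result was not tested. All libraries came from 1 cultured line, U251. In bulk RNA, more cells expressing a marker and more RNA per cell cannot be told apart, nor can fewer cells and less RNA.

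**Figure D2:**
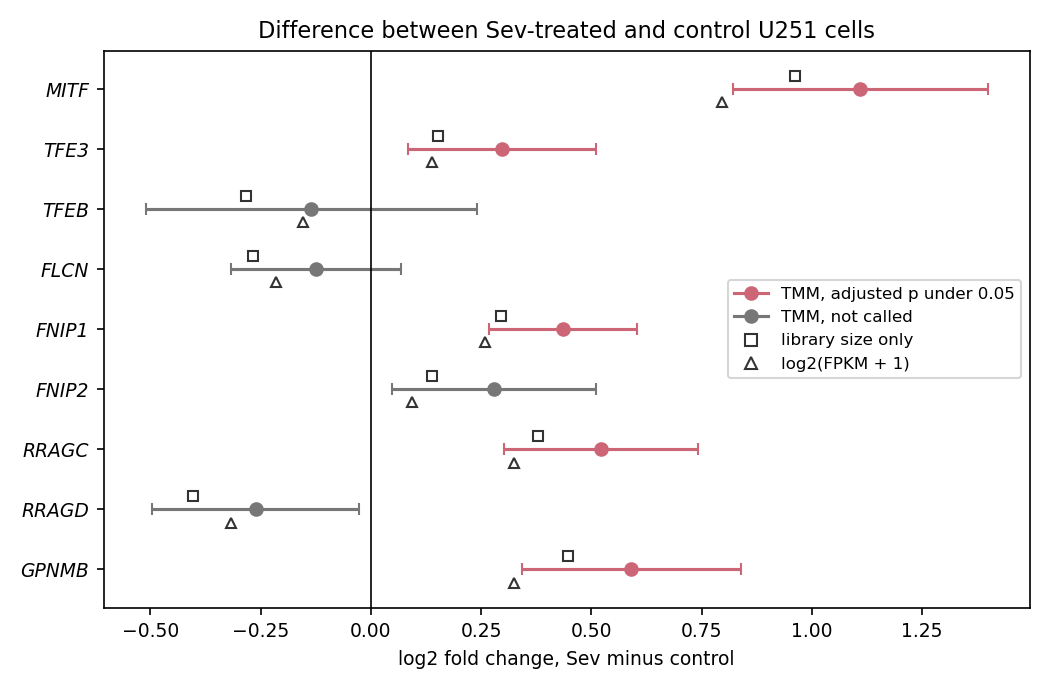
Log2 fold change of the 9 tested genes, Sev minus control (x axis), with 95% confidence intervals from edgeR after TMM scaling as circles and bars, and the values under library size alone (squares) and limma on log2(FPKM + 1) (triangles). MITF lies farthest from 0 at 1.11, and every square and triangle lies to the left of its circle.

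Levels of different genes were compared on deposited FPKM values, which account for length. In control cells TFE3 had the highest level at 11.3 to 12.3 FPKM, followed by FNIP1 at 7.41 to 7.54 and RRAGC at 5.25 to 5.59, each separate from its neighbour. FLCN, RRAGD and MITF came next, where FLCN overlapped with RRAGD and RRAGD with MITF, while MITF lay above GPNMB without overlap. GPNMB and FNIP2 followed and overlapped with each other, and TFEB at 1.118 to 1.504 FPKM was below both. In Sev cells the order began with TFE3, FNIP1 and RRAGC again, but MITF at 5.95 to 7.41 FPKM now overlapped with RRAGC at 6.67 to 7.31. FLCN, RRAGD and GPNMB then formed a run of overlapping neighbours, with FNIP2 and TFEB below them.

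The makeup of each paralog group was read as the share of a gene in the summed FPKM of its group, which needs no scaling between libraries. MITF made up 22.9%, 21.0% and 20.1% of the MITF/TFE sum in control and 35.6%, 32.7% and 30.1% in Sev. Its mean share was 21.3 ± 1.46% and 32.8 ± 2.72% (SD, n = 3 each), a difference of 11.5 percentage points. TFE3 was the main family member in both groups by FPKM, with 68.2%, 71.9% and 71.5% in control and 59.4%, 61.7% and 64.6% in Sev. TFEB had 8.85%, 7.14% and 8.35% in control and 5.05%, 5.55% and 5.24% in Sev, so that its share was lower in every Sev library although its own level was not called. None of these 3 shares overlapped between the groups. Each gave an exact two-sided permutation p = 0.1, the smallest that 3 against 3 allows, and 0.15 after adjustment over the 6 shares, so this test cannot reach 0.05 for any of them.

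RRAGC made up 53.6%, 58.5% and 57.3% of the RRAGC and RRAGD sum in control and 71.4%, 69.7% and 66.0% in Sev. The mean share differed by 12.5 percentage points without overlap (exact two-sided permutation p = 0.1, the smallest possible, adjusted p = 0.15). The FPKM ratio of RRAGC to RRAGD was accordingly 1.16, 1.41 and 1.34 in control and 2.50, 2.30 and 1.94 in Sev. FNIP1 took 77.5%, 78.7% and 77.2% of the FNIP sum in control and 78.4%, 80.9% and 79.6% in Sev, with overlapping groups (exact two-sided permutation p = 0.2, adjusted p = 0.24). Whether the pairs differed in this respect was not tested. The share of TFEC was at most 0.0724% in any library.

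**Figure D3:**
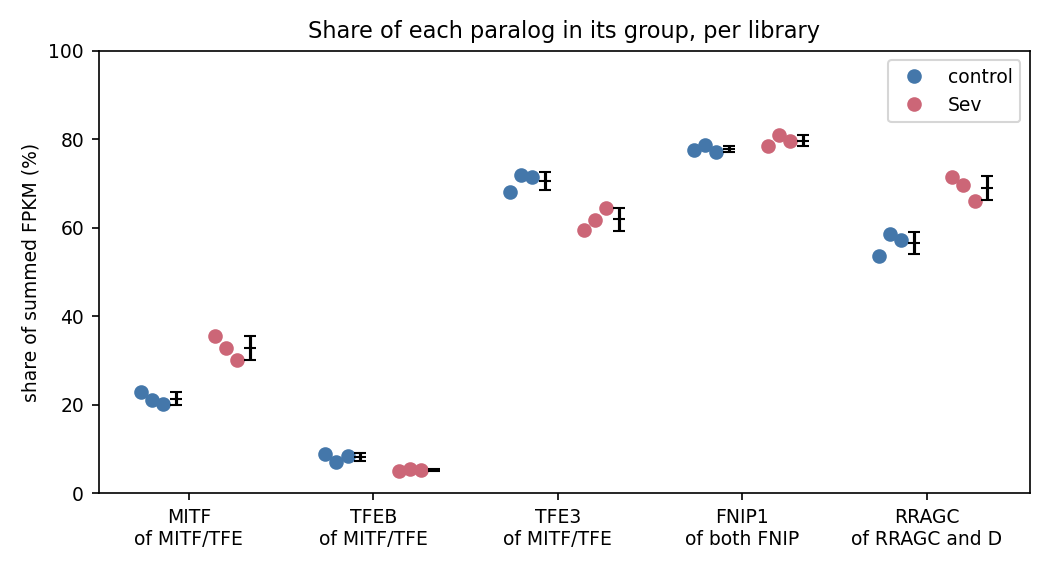
Percent share of a gene in the summed FPKM of its paralog group (y axis, 0 to 100%) in each control and Sev library (points), with mean ± SD as black bars. MITF and RRAGC have higher shares in all Sev libraries (30.1% to 35.6% and 66.0% to 71.4%), TFE3 and TFEB lower ones, and FNIP1 overlaps.

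The rest of the Rag and mTORC1 machinery was read from a list of 35 genes, all tested. Of these, 8 were higher, 7 were lower and 20 were not called, so that 42.9% were called beside 43.7% of all features, and the median log2 fold change was −0.01. SESN2, a leucine sensor that restrains mTORC1 through GATOR2, rose from 19.4, 16.9 and 18.3 to 42.6, 37.5 and 55.4 CPM (log2 fold change 1.31, SE 0.15, edgeR adjusted p = 0.000559). Its relative SESN3 rose from a mean of 356 to 589 CPM (0.73, SE 0.14). SESN1, another relative, named after its values were seen, had a log2 fold change of −0.42 and was not called (edgeR adjusted p = 0.0577). SEC13, shared by GATOR2 and the nuclear pore, rose from 118 to 191 CPM (0.70, SE 0.11). CASTOR1, the cytosolic arginine sensor, was lower at a mean of 3.74 against 1.26 CPM (log2 fold change −1.56, SE 0.31, edgeR adjusted p = 0.00533). SLC38A9, the lysosomal arginine sensor, went from 20.3 to 10.8 CPM (−0.91, SE 0.12), and NPRL2, a subunit of the RagA/B GTPase-activating complex GATOR1, from 15.1 to 9.02 CPM (−0.74, SE 0.14).

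Within mTORC1 itself, 4 of 5 genes were higher, namely RPTOR, MLST8, AKT1S1 and DEPTOR, of which the first 3 are named here after their values were seen, and MTOR was not called. The share of all features called higher was 22.1%, and a group this small is only described. Both filtered limma fits called only 4 genes of the list higher, SESN2, SESN3 and SEC13 among them, and did not test DEPTOR. Library size alone called 6 higher, with SESN2, SESN3, SEC13 and DEPTOR among them. RPTOR, MLST8 and AKT1S1 therefore did not all keep their calls in any of these fits. DEPTOR, an mTOR inhibitor, had only 15 to 38 counts per control library and 45 to 62 per Sev library (log2 fold change 1.12, SE 0.32, edgeR adjusted p = 0.0239), and its call was lost without control replicate 2 or Sev replicate 1 (adjusted p up to 0.0813) and by unfiltered limma on log2(FPKM + 1). Of the 5 Ragulator genes, edgeR and DESeq2's Wald test each called 0, and at an unadjusted p-value under 0.05 there was 1 in each direction. Of the 3 TSC complex genes and the RRAGA and RRAGB pair, edgeR called 0 with or without adjustment, and the Wald test called 0.

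Among 34 genes known to regulate MITF/TFE factors or FLCN, all tested, 9 were higher and 5 were lower (41.2% called beside 43.7% of all features, median log2 fold change 0.14). Calcineurin, a phosphatase that acts on TFEB, had 2 of 4 subunit genes higher, beside 22.1% of all features. PPP3CC was at 16.5, 16.9 and 18.5 CPM in control and at 30.6, 29.9 and 37.4 CPM in Sev (log2 fold change 0.92, SE 0.12, edgeR adjusted p = 0.000880), and PPP3R1, named after its values were seen, changed by 0.61 (edgeR adjusted p = 0.00157). PPP3CA and PPP3CB, also named after their values were seen, had log2 fold changes of −0.23 and −0.20. They were not called (edgeR adjusted p = 0.105 and 0.144). SMCR8, which forms with C9orf72 and WDR41 a complex related in structure to folliculin, rose from 83.8, 79.3 and 80.5 to 134, 135 and 144 CPM (0.76, SE 0.07, edgeR adjusted p = 0.000276), while WDR41 fell by 0.40 on the log2 scale (SE 0.08, edgeR adjusted p = 0.00459). C9orf72, named after its values were seen, had a log2 fold change of −0.58 (SE 0.21) without overlap and was not called (edgeR adjusted p = 0.0601).

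AMPK subunit genes, which encode an energy sensor that acts on FNIP1 and TFEB, were called in both directions, with 3 of 6 higher and 2 lower, beside 22.1% and 21.5% of all features. PRKAG2 was higher by a log2 fold change of 0.94 (SE 0.15), whereas PRKAA2 was lower by −0.68 (SE 0.09) and PRKAG1 by −0.65 (SE 0.18). The PRKAG1 call was lost without control replicate 2 or 3 or Sev replicate 1 or 3 (adjusted p up to 0.0694). MAP4K3, a kinase of TFEB, was at 80.8, 141 and 70.1 CPM in the Sev libraries against a control mean of 54.9 (0.82, SE 0.24, edgeR adjusted p = 0.0246), with Sev replicate 2 standing apart. Its log2 fold change was 0.46 without that library, and the call was lost without control replicate 1, 2 or 3 (adjusted p up to 0.0744) and in all 3 limma fits.

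Target genes were divided into lysosome and autophagy genes with CLEAR elements, the E-box type bound by TFEB and TFE3, and MITF targets of pigment cells or osteoclasts. Of 51 CLEAR genes, 50 were tested, 7 were higher, 6 were lower and 37 were not called. Under library size alone 4 were higher and 11 lower, and the number lower was 2, 1 and 3 without control replicate 1, Sev replicate 1 and Sev replicate 3. The 26% called stand beside 43.7% of all features, the median log2 fold change was 0.01, and 0 passed the threshold of the study in edgeR, which uses the unadjusted p-value. The genes called higher included IDS, a lysosomal sulfatase (log2 fold change 0.77, SE 0.15), SQSTM1, the autophagy receptor p62 (0.65, SE 0.10), VPS18, a tethering subunit (0.54, SE 0.09), and RAB7A, the late endosome GTPase (0.44, SE 0.07). The IDS call was lost by unfiltered limma on log2(FPKM + 1). SQSTM1 had 366, 459 and 428 CPM in control and 665, 683 and 612 CPM in Sev.

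Among the genes called lower, GALNS, a lysosomal sulfatase, was lower by a log2 fold change of −0.67 (SE 0.11, edgeR adjusted p = 0.00219) and kept its call whichever library was left out. GAA (−0.63, SE 0.17), ARSA (−0.61, SE 0.17) and CTSF (−0.60, SE 0.17) were less stable. GAA lost its call without control replicate 1, Sev replicate 1 or Sev replicate 3, with adjusted p-values up to 0.0606. ARSA lost it without control replicate 1 or 3 or Sev replicate 1 (up to 0.0652), and CTSF without control replicate 1 or 3 or Sev replicate 1 or 3 (up to 0.0676) or with the replicate block.

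Of 21 pigment-cell and osteoclast targets, 15 were tested and 4 were higher (26.7%, beside 22.1% of all features), with a median log2 fold change of 0.29. Both edgeR and DESeq2's Wald test called 0 lower, and 3 were lower at an unadjusted p-value under 0.05. Of these SLC24A5, named after its values were seen, was past the threshold of the study, at a log2 fold change of −1.04 and an edgeR adjusted p = 0.0879. Its counts were low, at 31, 73 and 33 in control and 18, 18 and 24 in Sev, with control replicate 2 standing apart. SLC45A2, a melanosomal transporter, had 13, 9 and 13 counts in control and 81, 36 and 90 counts in Sev (log2 fold change 2.73, SE 0.40, edgeR adjusted p = 0.00139). DCT, dopachrome tautomerase, had 16, 10 and 10 counts in control and 35, 16 and 54 counts in Sev (1.70, SE 0.48, edgeR adjusted p = 0.0228), and its call was lost without control replicate 2 or 3 or Sev replicate 1 or 3 (adjusted p up to 0.0800) and by unfiltered limma on log2(FPKM + 1).

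MC1R, the melanocortin receptor, went from a mean of 23.0 to 38.2 CPM (log2 fold change 0.73, SE 0.19, edgeR adjusted p = 0.0171) and lost its call without control replicate 2 or 3 or Sev replicate 1 or 3 (adjusted p up to 0.0616), as well as under library size only and in all 3 limma fits. HPS4, of a complex for lysosome-related organelles, changed by 0.36 (SE 0.12, edgeR adjusted p = 0.0426), and its call was lost without control replicate 2 or 3 or Sev replicate 1 or 2 (adjusted p up to 0.118) and in 6 of the 9 other alternatives, including library size only, the replicate block and all 3 limma fits. TYR, the enzyme that defines pigment cells, and OCA2 had 0 counts in all 6 libraries. Of 6 melanocyte markers, 5 were tested, DCT was higher and SOX10 lower, beside 22.1% and 21.5% of all features. At an unadjusted p-value under 0.05 in edgeR, 2 were higher and 2 were lower. The summed level of the 6 markers was 3.51 to 4.02 CPM in control and 3.66 to 4.77 CPM in Sev. The SOX10 call (log2 fold change −0.94, edgeR adjusted p = 0.0339) was lost without control replicate 2 or 3 or Sev replicate 1 or 3 (adjusted p up to 0.114), and also by DESeq2's Wald test, without the filter on low counts and with the replicate block.

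**Figure D4:**
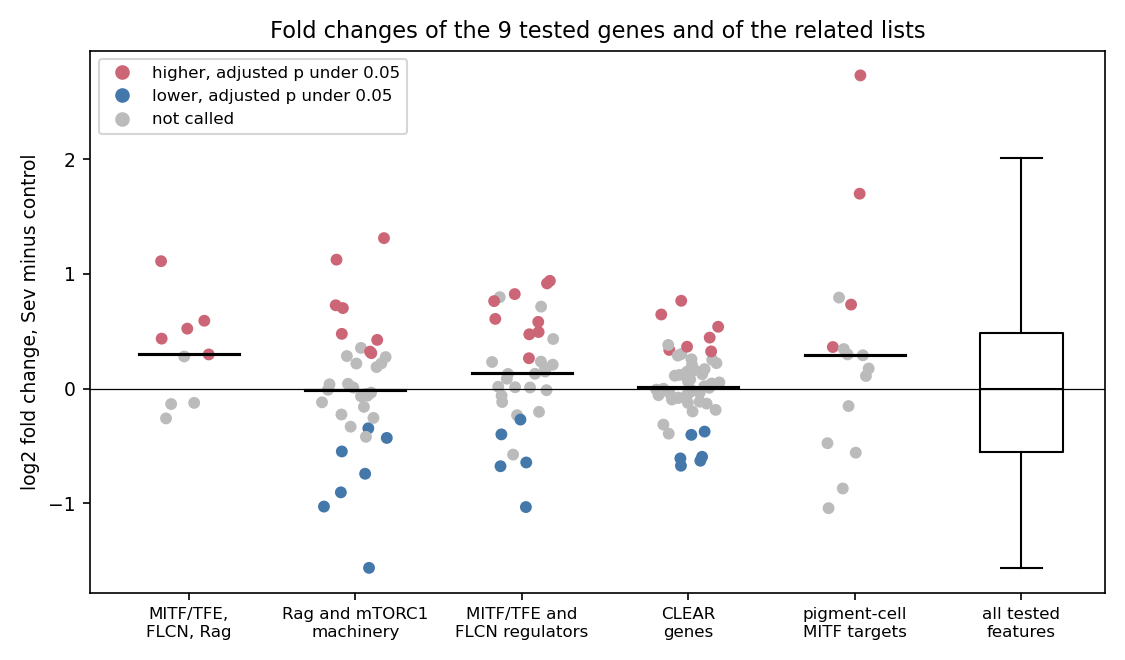
Log2 fold change, Sev minus control (y axis), of each tested gene in the 4 related lists and of the 9 tested genes of the axis, with black lines at the medians, beside a box for all tested features whose edges are the quartiles and whose whiskers span the 5th to the 95th percentile (−1.57 to 2.01). The medians are −0.01, 0.14 and 0.01 for the Rag machinery, the regulators and the CLEAR genes. They are 0.29 for the pigment-cell targets and 0.30 for the 9 genes of the axis.

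Some exons are shared with other annotated genes. In GENCODE 29, FLCN, FNIP1 and RRAGC each share exon bases on their own strand with 1 other gene, AC055811.2 over 1161 bases, AC008695.1 over 281 bases and AL139260.2 over 1183 bases. These partners had 4 to 16 counts, 0 counts and 0 counts per library, and how the counting treated shared reads is not stated. Genes on the opposite strand shared no exon bases with any of the 10 genes.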

How the data were processed

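Strand-specific libraries were made from total RNA after removal of ribosomal RNA. The authors deposited raw counts per gene and, in a second table, FPKM values. The submitters' processing notes name bcl2fastq 2.19, featureCounts and hg18 without giving their roles, and the aligner is not given in the sources used here. The tables carry no coordinates, so positions were joined by Ensembl identifier to GENCODE 29 on GRCh38, and promoter windows came from RefSeq. Whether the counting used strand is not stated.

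The counts were fitted with edgeR 4.0.16 in R 4.3.3 (filterByExpr, TMM, glmQLFit and glmQLFTest, the 2 groups with no covariate). Adjusted p-values follow Benjamini and Hochberg over the 27514 tested features, with a limit of 0.05. The SE was |log2 fold change| / sqrt(F). CPM values are TMM-normalised without a prior count. The fit was tested on simulated data. Replicate pairs differed beyond sampling noise in 50.5% to 68% of 13668 genes.

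Alternatives were size factors and the Wald test of DESeq2 1.42.0, library size only, other filters, a replicate block, each library left out, and limma 3.58.1 on FPKM values. The limma fits used log2(FPKM + 1) or log2(FPKM + 0.1) where 3 libraries reached 0.5 FPKM, and the former was also run unfiltered. Depth was 38624292 to 46318311 counts per library, and 3 libraries per group limit the precision, as do the counts of genes with few reads.

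The 10 genes and all lists were chosen with earlier results of these data known. Within each list and direction, up to 4 called genes without overlap between groups and with the largest absolute log2 fold changes were named. The results for 2 genes that this rule names are not reported here. All 10 genes, 4 pathway lists and 3 lists of markers matched the table, 1 symbol through a synonym.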

Additional observations from a re-analysis of the deposited data

How the results depend on the processing

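The calls of MITF, RRAGC and GPNMB held in all 15 alternatives, and no log2 fold change of the 9 tested genes changed sign in any of them. Scaling by library size alone gave 2 of the genes lower and 0 past the threshold of the study. It gave 11 Rag and mTORC1 genes, 9 regulators, 11 CLEAR genes and 2 pigment-cell targets lower, and 4 CLEAR genes and 2 pigment-cell targets higher. Limma on log2(FPKM + 1) gave 1 of the genes lower and 0 past the threshold, 4 Rag and mTORC1 genes, 4 CLEAR genes and 0 pigment-cell targets higher, and 8 regulators and 1 pigment-cell target lower. Limma on log2(FPKM + 0.1) gave 3 of the genes higher, 1 lower and 0 past the threshold, and 4 Rag and mTORC1 genes, 4 CLEAR genes and 0 pigment-cell targets higher. Without its filter, limma on log2(FPKM + 1) gave 2 of the genes lower and 0 past the threshold, 5 Rag and mTORC1 genes, 4 CLEAR genes and 1 pigment-cell target higher, and 11 Rag and mTORC1 genes and 8 regulators lower. Over all features these 3 fits called 3584, 3269 and 4386 higher and 6726, 6294 and 7140 lower, with 1267, 4390 and 1260 past the threshold (6462 in edgeR). SLC45A2, DCT, DEPTOR, ITGAM and SOX10 did not reach the FPKM minimum in 3 libraries and were not tested in the filtered fits. With at least 10 counts in every library, 1 pigment-cell target was lower, and SLC45A2 and ITGAM were not tested. The cause of these differences was not tested.

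Leaving out single libraries gave 3 to 5 regulators, 1 to 7 CLEAR genes and 0 to 2 pigment-cell targets lower, and 1 to 4 pigment-cell targets higher. CLEAR genes called lower numbered 2 without control replicate 1, 1 without Sev replicate 1 and 3 without Sev replicate 3. Regulators called lower numbered 3 without Sev replicate 1, and also without control replicate 2 or 3. Pigment-cell targets called higher numbered 2 without control replicate 2 or Sev replicate 3 and 1 without control replicate 3, and those called lower numbered 2 without control replicate 2 and 1 without Sev replicate 2. Over all features the leave-outs called 4780 to 5709 higher and 4438 to 5521 lower. The difference in the TFEC share, within counts near 0, ranged from −0.0337 to 0.00927 percentage points.

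Replicate numbers were not taken as pairs in the main fit. The correlations of same-numbered libraries' deviations were −0.00723, 0.00351 and 0.0270, within the range of −0.0383 to 0.0319 for differently numbered ones. These values cannot show whether cultures were handled in pairs. With the replicate block, 4 of the genes were higher and 0 lower, TFE3 being lost (adjusted p = 0.0702), and over all features 5228 were higher and 5021 lower. TFEC, TYR and OCA2 had few or 0 counts and were not tested.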
